A study of Mus musculus with 9 samples.

Results

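The core transcripts of the stress response led by the transcription factor ATF4 were followed in MyC-CaP cells treated with NRG1. They are the genes named Atf4, Atf3, Atf5, Ddit3, Ddit4, Chac1, Nupr1, Trib3, Asns and Sesn2, 10 of 15552 genes, and all 10 passed the filter on low counts that left 11373 genes for testing. MyC-CaP is a prostate cancer cell line from a tumor of a mouse with a MYC transgene. Cells of all 3 groups were first starved for 6 to 12 h in medium without serum and calcium, and recombinant mouse NRG1, a ligand of HER3, was then present at 15 ng/mL for 0, 12 or 24 h, with 3 libraries labelled as biological replicates per time. The labels give 1 line and treatment to all 9 libraries. The starvation and its medium are taken from the study's methods, which give the time as a range and not per library. The labels do not say whether the replicates were cultures grown on different days. The study's methods say that cells were plated in triplicate in well plates, so the replicates may be parallel wells. The p-values therefore rest on the spread between these libraries only. Libraries kept in the medium without NRG1 for 12 or 24 h were not analysed here, and the time in the medium and the time with NRG1 cannot be told apart.

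In the integrated stress response, a small family of kinases senses amino acid shortage, unfolded protein in the endoplasmic reticulum, double-stranded RNA or lack of heme, and phosphorylates the translation factor eIF2. Most translation then falls, while the Atf4 mRNA, which carries upstream open reading frames, is translated more, so that the amount of ATF4 protein is not read from its mRNA. ATF4 pairs with C/EBP proteins at composite elements and raises genes for amino acid synthesis and uptake, for further regulators, and for inhibitors of mTORC1, the kinase complex that couples nutrients to growth.

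The composite element bound by ATF4 and C/EBP proteins was searched for as TGATGNAA, on both strands, in RefSeq windows (GRCm38.p6) from 250 bases before to 50 bases after each annotated start. Such a match was present in 5 of the 10 genes, against 4.51% of all 27025 genes with a window. Those of Atf3, Nupr1 and Chac1 read TTGCATCA on the strand of the gene and began at -110, -110 and -193 relative to the start. In Asns the match TGATGAAA began at -23, and in Trib3 TTACATCA began at base 15 after the start. Annotated exons of the same gene cover all 250 bases before the Nupr1 start and all 30 bases shown for Asns. The windows of Nupr1 and Atf3 lie inside the gene spans given below, not at their upstream ends. A second motif, TNACGTCA, the cyclic AMP response element with a free second base, matched in 1 of the 10, Atf3, as TTACGTCA at -10, against 3.36% of all genes, and the endoplasmic reticulum stress element, CCAAT and CCACG with 9 free bases between them, matched in 0 of the 10 and in 0.137% of all genes. The matches did not overlap. Atf4, Atf5, Ddit3, Ddit4 and Sesn2 had no match to any of the 3 motifs there, which says only that these letters are not in the windows. The 250 bases before the start of Chac1 and Atf3 are shown because these 2 genes had the largest estimates at 12 h, of which that of Chac1 passed at 24 h and that of Atf3 did not, and the 30 bases around the match for the other 3, with matches in capitals.
Chac1, chr2:119350992-119351241, plus strand: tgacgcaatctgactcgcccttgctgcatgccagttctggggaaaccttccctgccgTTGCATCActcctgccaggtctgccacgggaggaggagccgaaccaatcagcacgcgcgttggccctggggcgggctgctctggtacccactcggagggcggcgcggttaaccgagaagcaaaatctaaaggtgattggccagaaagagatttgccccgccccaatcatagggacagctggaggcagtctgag
Atf3, chr1:191183334-191183583, minus strand: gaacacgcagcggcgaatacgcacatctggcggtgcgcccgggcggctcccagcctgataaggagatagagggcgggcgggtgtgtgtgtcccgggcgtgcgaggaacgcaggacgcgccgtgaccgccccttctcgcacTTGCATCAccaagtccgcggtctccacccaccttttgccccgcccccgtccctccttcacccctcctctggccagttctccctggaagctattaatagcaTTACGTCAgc
Nupr1, chr7:126625562-126625591, minus strand: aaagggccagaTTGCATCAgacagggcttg
Trib3, chr2:152344028-152344057, minus strand: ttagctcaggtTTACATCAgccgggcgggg
Asns, chr6:7693214-7693243, minus strand: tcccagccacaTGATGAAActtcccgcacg

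Sequencing depth was close between groups, with 28467089 to 39239760 counts per library, and the members carried between 361 and 27364 counts each. Between replicates, chi-square values per degree of freedom lay between 3.40 and 10.3, above what counting noise gives, and the pairs at 10.2 and 10.3 both held replicate 3 at 12 h. The members' changes are therefore given with and without this library. Levels are given as CPM, the count divided by the TMM-scaled library total and multiplied by 1000000. Foxa1 and Hoxb13, transcription factors of the prostate epithelium, stood at 274 or more and 82.3 or more CPM. The epithelial adhesion genes Epcam and Cdh1 had at most 3 and 4 counts in any library, near the 3 counts that an observed 0 allows, which is 0.0765 to 0.105 CPM, and Krt18 had at most 17. The 11 markers of fibroblasts, smooth muscle, endothelium, leukocytes, basal and neuroendocrine cells summed to between 1.02 and 2.07 CPM, with ranges of 1.02 to 1.53 at 0 h, 1.29 to 1.52 at 12 h and 1.33 to 2.07 at 24 h. Among them, Cdh5 was at 0 in 7 libraries and Col3a1 and Chga in 8.

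Per kilobase of exon, the 10 genes spanned a wide range at 0 h. Ddit4 stood highest at 349 ± 22.5 FPKM (CPM per kilobase of merged exons, SD, n = 3), followed by Atf4 at 138 ± 8.25. Asns and Atf5 came next, at 73.9 ± 5.96 and 70.9 ± 2.96 FPKM, with overlapping ranges. The lower 6 were Trib3 (18.8 ± 1.48), Atf3 (16.6 ± 3.46), Chac1 (12.6 ± 1.06), Nupr1 (8.90 ± 0.945), Sesn2 (8.46 ± 0.682) and Ddit3 (7.39 ± 0.317). In that order the ranges of Trib3 and Atf3, and of Nupr1 and Sesn2, overlapped, and the other neighbours did not. The order of the means was the same at 12 h. At 24 h Chac1, at 20.2 FPKM, stood above Atf3, at 17.6, with overlapping ranges.

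All 10 genes had estimates above 0 at both later times. At 12 h, 9 of the 10 genes were higher than at 0 h with an edgeR adjusted p of at most 0.05, where 13.6% of all tested genes were, and their median log2 fold change was 0.51 against -0.0028 over all tested genes. With a fold change of at least 1.5 required as well, which is what called means below, 4 of the 10 were called higher, Atf3, Chac1, Nupr1 and Trib3, where 1.34% of all genes were. At 24 h, again 9 of the 10 passed the adjusted p against 9.67% of all genes, with a median of 0.46, and 3 were called, Chac1, Nupr1 and Trib3, against 1.68% of all genes. The gene that did not pass was Ddit3 at 12 h and Atf3 at 24 h. Every member had all 3 of its 12 h values above its 3 values at 0 h, which held for 19.9% of all tested genes, and at 24 h Atf3 was the 1 exception, against 17.6% of all genes. Both comparisons use the same 3 libraries at 0 h. In a test over the 3 time points together, all 10 passed with edgeR adjusted p of at most 0.0141, as did 27.4% of all genes. In bulk RNA, a higher level in each cell and a larger share of cells with a high level cannot be told apart.

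Without replicate 3 at 12 h, the same 9 genes passed the adjusted p at 12 h, against 13.5% of all genes, and the median was 0.43. The number called fell from 4 to 1, against 1.16% of all genes, and the gene that remained was Chac1. Atf3, Nupr1 and Trib3 were no longer called because their folds fell under 1.5, to 1.36, 1.48 and 1.45, while their adjusted p stayed at or under 0.05. The 24 h comparison, whose means hold no 12 h library, kept its calls of Chac1, Nupr1 and Trib3 and its 9 genes past the adjusted p, where 1.74% and 11.5% of all genes were called higher and passed upward.

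**Figure D1:**
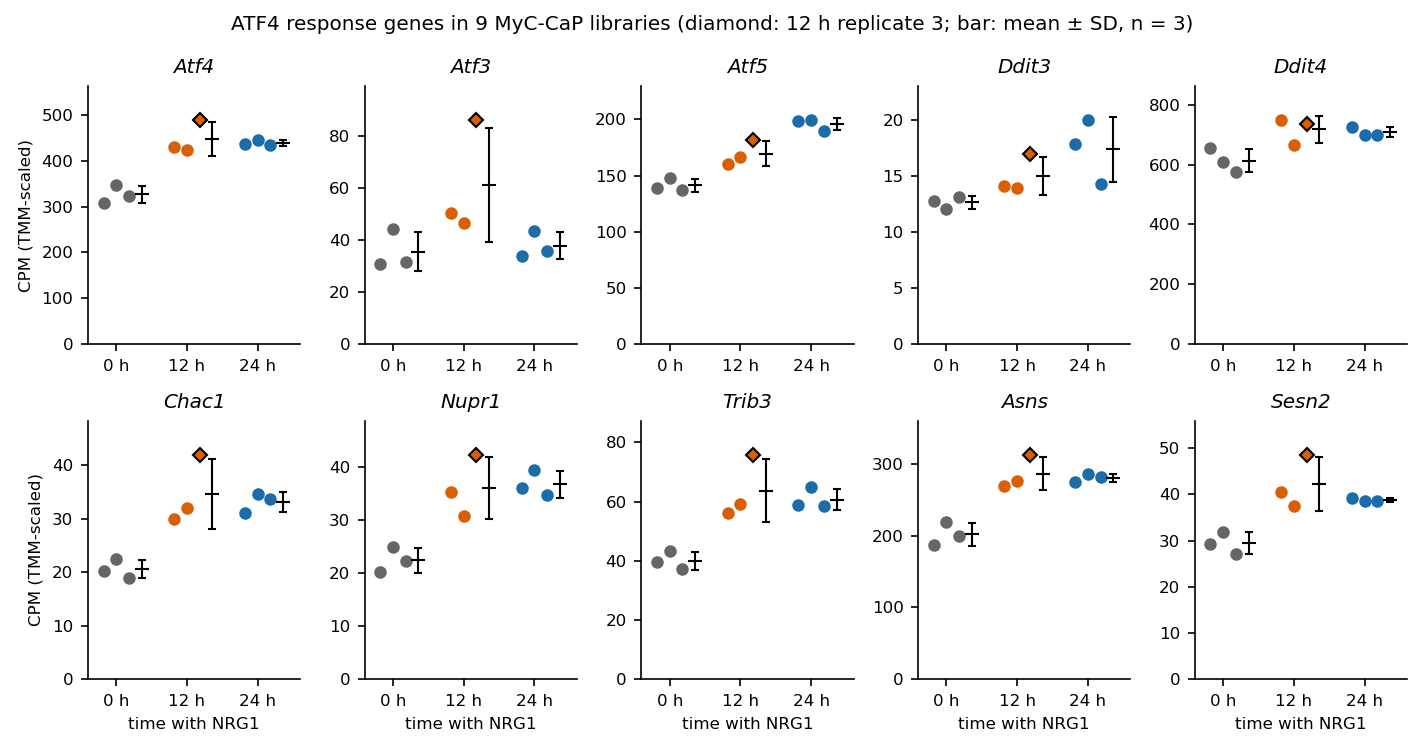
CPM (TMM-scaled, linear axes from 0) of the 10 genes in each of the 9 libraries by time with NRG1. Points are libraries in the order of replicates 1 to 3, the diamond is replicate 3 at 12 h, and bars are mean ± SD (n = 3). In each of the 10 panels the 3 points at 12 h lie above the 3 at 0 h, and the diamond is the highest of the 12 h points for all but Ddit4.

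The regulators are described first. Gene spans are GRCm38 coordinates. Atf4 (ENSMUSG00000042406.8, chromosome 15, 80255184 to 80257541) encodes the factor after which the response is named. Its CPM were 308, 347 and 324 at 0 h, 429, 423 and 489 at 12 h and 436, 446 and 434 at 24 h for replicates 1, 2 and 3. Both later groups lay above all 3 values at 0 h and overlapped each other, with replicate 3 at 12 h the highest of the 9. The means were 326 ± 19.5, 447 ± 36.8 and 439 ± 6.27 CPM (SD, n = 3). Atf4 rose at 12 h (log2 change 0.45, SE 0.0521, edgeR adjusted p = 1.11e-05) and at 24 h (log2 change 0.43, SE 0.0521, edgeR adjusted p = 2.27e-05). These rises were short of 1.5-fold. Between 12 and 24 h it differed by -0.027 on the log2 scale, with a 95% interval from -0.14 to 0.082. Without replicate 3 the 12 h rise was 0.39 ± 0.0431 (SE, edgeR adjusted p = 2.32e-06).

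Atf3 (ENSMUSG00000026628.13, chromosome 1, 191170296 to 191218039), a stress-induced factor of the same family that often acts as a repressor, had the largest estimate at 12 h and was the least even of the 10 between libraries at 0 h and 12 h. It stood at 31.1, 44.3 and 31.7 CPM at 0 h, 50.5, 46.5 and 86.4 at 12 h and 33.8, 43.7 and 36.1 at 24 h. Replicate 3 at 12 h was far above every other library, and replicate 2 at 0 h came close to the lower 12 h values. The coefficient of variation was 20.9% at 0 h and 35.9% at 12 h, and at 24 h it was 13.7%, under the 16.7% of Ddit3. The 12 h rise was called (log2 change 0.77, SE 0.181, edgeR adjusted p = 0.00492). It kept 58.3% of its log2 size without replicate 3 (log2 change 0.45, SE 0.112, edgeR adjusted p = 0.00611), the smallest share of any member, and the call was lost. At 24 h the values overlapped those at 0 h (log2 change 0.080, SE 0.185, edgeR adjusted p = 0.821, 95% interval from -0.31 to 0.47).

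Atf3 was the 1 member called between the later time points, where 0.0879% of all tested genes were called lower. It was lower at 24 h than at 12 h (log2 change -0.69, SE 0.180, edgeR adjusted p = 0.0358), and all 3 values at 24 h lay below all 3 at 12 h, as did those of 13.6% of all tested genes. By the adjusted p alone, 3.06% of all genes fell. Without replicate 3 at 12 h the difference was -0.36 ± 0.112 (SE, edgeR adjusted p = 0.0520), past neither threshold. The fall was also not called without replicate 1 at 24 h (-0.61, edgeR adjusted p = 0.136), replicate 2 at 24 h (-0.80, edgeR adjusted p = 0.0516) or replicate 3 at 24 h (-0.65, edgeR adjusted p = 0.137), nor in DESeq2 (DESeq2 adjusted p = 0.162). In the 2 remaining 12 h libraries Atf3 was at 50.5 and 46.5 CPM, against 43.7 CPM in the highest library at 24 h and 44.3 CPM in the highest at 0 h.

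Atf5 (ENSMUSG00000038539.15, chromosome 7, 44812256 to 44816658), a close relative of ATF4 that is also translated under stress and acts on mitochondrial proteostasis, was the 1 gene that rose again after 12 h. Its CPM were 139, 148 and 137 at 0 h, 160.3, 167 and 182 at 12 h and 199, 199.8 and 190.0 at 24 h. The 3 groups did not overlap. Atf5 rose at 12 h (log2 change 0.26, SE 0.0469, edgeR adjusted p = 0.000596), at 24 h (log2 change 0.47, SE 0.0467, edgeR adjusted p = 2.83e-06) and from 12 to 24 h (log2 change 0.21, SE 0.0465, edgeR adjusted p = 0.0159), where 1.97% of all tested genes rose by the adjusted p. The last step was 0.26 without replicate 3 at 12 h (edgeR adjusted p = 0.000995), where 3.41% of all genes rose. Over the 9 leave-one-out fits it passed in 6, with values from 0.17 to 0.26. Of its exonic bases, 4.11% lie under genes on the opposite strand, Nup62 and Il4i1.

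Ddit3 (ENSMUSG00000025408.15, chromosome 10, 127290774 to 127296288) encodes CHOP, a C/EBP protein that is induced by ATF4 and linked to cell death under prolonged stress. It was the lowest of the 10 per kilobase at each time point, with 12.8, 12.0 and 13.1 CPM at 0 h, 14.2, 14.0 and 16.9 at 12 h and 17.9, 20.04 and 14.3 at 24 h. All later values lay above those at 0 h, and the lowest library at 24 h lay below the highest at 12 h, so these groups overlapped. The 12 h estimate did not pass (log2 change 0.25, SE 0.110, edgeR adjusted p = 0.114, and 0.16 with edgeR adjusted p = 0.328 without replicate 3), and Ddit3 rose at 24 h (log2 change 0.46, SE 0.108, edgeR adjusted p = 0.00742). Without replicate 3 at 24 h, the lowest of that group, the 24 h rise was 0.59 and was called (edgeR adjusted p = 0.00096). A transcript of a further annotated Ddit3 locus covers 6.13% of its exonic bases on the same strand, and 4.73% lie under genes on the opposite strand, Mars and Gm4189.

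Nupr1 (ENSMUSG00000030717.9, chromosome 7, 126623249 to 126630861), a small nuclear protein induced by many stresses, stood at 20.1, 24.8 and 22.2 CPM at 0 h, 35.2, 30.7 and 42.3 at 12 h and 35.9, 39.4 and 34.6 at 24 h. The later groups overlapped each other and lay above all values at 0 h. It rose at 12 h (log2 change 0.68, SE 0.0976, edgeR adjusted p = 8.23e-05) and at 24 h (log2 change 0.71, SE 0.0971, edgeR adjusted p = 7.17e-05), and both rises were called. Without replicate 3 the 12 h rise was 0.56 ± 0.0811 (SE, edgeR adjusted p = 3.85e-05), just short of the fold threshold, and without each of the other 8 libraries it was called. The 24 h call held in all 9 such fits.

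Trib3 (ENSMUSG00000032715.9, chromosome 2, 152337422 to 152344032) encodes a pseudokinase that binds ATF4 and AKT and restrains the response that induces it. Its CPM were 39.4, 43.3 and 37.1 at 0 h, 56.0, 59.1 and 75.9 at 12 h and 58.8, 64.9 and 58.4 at 24 h. Replicate 3 at 12 h was the highest, and the other 12 h values lay in or near the range at 24 h. Trib3 rose at 12 h (log2 change 0.67, SE 0.0896, edgeR adjusted p = 4.41e-05) and at 24 h (log2 change 0.60, SE 0.0896, edgeR adjusted p = 0.000152), with both called. The 12 h call was lost without replicate 3 (log2 change 0.53, SE 0.0620, edgeR adjusted p = 4.13e-06). The 24 h call, at 1.52-fold, was lost without replicate 3 at 0 h (0.56) or replicate 2 at 24 h (0.56), with the adjusted p still past in each.

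Next come the enzymes. Chac1 (ENSMUSG00000027313.3, chromosome 2, 119351229 to 119354381), which degrades glutathione, was the member whose 12 h call did not depend on any single library. It had 20.3, 22.4 and 19.0 CPM at 0 h, 29.9, 32.0 and 42.1 at 12 h and 31.0, 34.6 and 33.7 at 24 h. The 12 h values of replicates 1 and 2 lay close to the 24 h values, and replicate 3 lay above them. It rose from 20.6 ± 1.73 to 34.7 ± 6.50 CPM (SD, n = 3) by 12 h (log2 change 0.75, SE 0.101, edgeR adjusted p = 4.84e-05) and stood at 33.1 ± 1.86 CPM by 24 h (log2 change 0.68, SE 0.101, edgeR adjusted p = 0.000139). Without replicate 3 the 12 h rise was 0.60 ± 0.0716 (SE, edgeR adjusted p = 6.07e-06), which is 1.51-fold and only just past the fold threshold. Both calls held in each of the 9 leave-one-out fits, with log2 fold changes from 0.60 to 0.85 at 12 h and from 0.63 to 0.76 at 24 h.

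Asns (ENSMUSG00000029752.12, chromosome 6, 7675169 to 7693254), asparagine synthetase, was at 188, 219.8 and 199 CPM at 0 h, 270.4, 277 and 314 at 12 h and 275, 286 and 282 at 24 h. The later groups lay above 0 h and overlapped each other. Asns rose at 12 h (log2 change 0.50, SE 0.0570, edgeR adjusted p = 9.94e-06) and at 24 h (log2 change 0.47, SE 0.0570, edgeR adjusted p = 1.87e-05), short of 1.5-fold at each. The 12 h rise kept 88.3% of its log2 size without replicate 3 (edgeR adjusted p = 2.32e-06).

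The remaining pair encodes inhibitors of mTORC1. Ddit4 (ENSMUSG00000020108.4, chromosome 10, 59949669 to 59951834), also known as REDD1, was the most abundant member and changed least at 12 h, with 655, 608 and 576 CPM at 0 h, 749.6, 666 and 735 at 12 h and 726, 699.5 and 697 at 24 h. Here replicate 1, not replicate 3, was the highest at 12 h, and the lowest 12 h value lay only slightly above the highest at 0 h. Ddit4 rose at 12 h (log2 change 0.23, SE 0.0488, edgeR adjusted p = 0.00259) and at 24 h (log2 change 0.21, SE 0.0487, edgeR adjusted p = 0.00711). The 12 h estimate was 0.22 without replicate 3 (edgeR adjusted p = 0.00437), 96.5% of its size with it.

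Sesn2 (ENSMUSG00000028893.8, chromosome 4, 132492032 to 132510501), a leucine-binding sestrin, had 29.2, 31.8 and 27.1 CPM at 0 h, 40.6, 37.4 and 48.6 at 12 h and 39.3, 38.5 and 38.5 at 24 h. The 24 h libraries were nearly equal, with a coefficient of variation of 1.18%, and fell within the range at 12 h. Sesn2 rose at 12 h (log2 change 0.52, SE 0.0792, edgeR adjusted p = 0.000149) and at 24 h (log2 change 0.40, SE 0.0793, edgeR adjusted p = 0.00209) without being called. Its 12 h rise was 0.42 without replicate 3 (edgeR adjusted p = 7.07e-05), and it was called without replicate 2 at 0 h (0.59) or replicate 2 at 12 h (0.60).

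**Figure D2:**
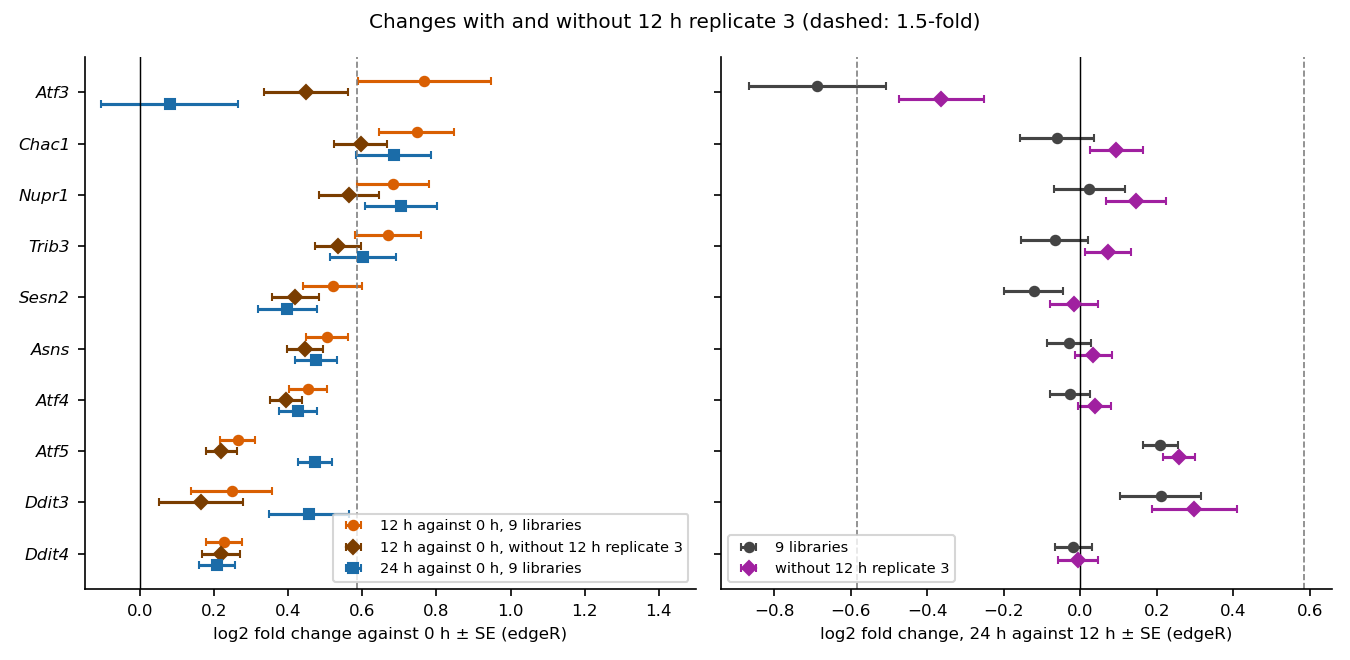
Log2 fold changes with their standard errors (edgeR) of the 10 genes against 0 h (left) and at 24 h against 12 h (right), with all 9 libraries and without replicate 3 at 12 h, and dashed lines at 1.5-fold. On the left, 4 of the 12 h estimates lie past the dashed line with all libraries and 1, Chac1 at 0.60, without replicate 3. On the right, Atf3 moves from -0.69 to -0.36.

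Between 12 and 24 h, 8 of the 10 genes passed no test, with log2 differences from -0.12 in Sesn2 to 0.21 in Ddit3, against 5.03% of all genes that passed in either direction. Of the 10, 3 had an estimate above 0 with all 9 libraries and 7 without replicate 3 at 12 h. Signs changed from below to above 0 in Atf4, Chac1, Trib3 and Asns, whose values without it were 0.037, 0.094, 0.072 and 0.033. None of these 4 estimates passed the test with or without that library. The largest 95% interval among the 8 genes reached from -0.016 to 0.43, in Ddit3.

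To see how far replicate 3 at 12 h carried these genes, the log2 CPM of each library was set against the mean of the other 2 libraries of its time point. In replicate 3 at 12 h, all 10 genes were above the others, by a median of 0.29 and a range from 0.057 in Ddit4 to 0.83 in Atf3, and 6 of the 10 lay above the 95th percentile of the 10468 genes with a mean of at least 1 CPM, which was 0.27. The members also shifted together in other libraries, less far. Replicate 2 was the highest of its group for 8 of the 10 genes at 0 h and for 8 of the 10 at 24 h, where these libraries were the highest for 34.4% and 33.5% of all genes, and the median deviations were 0.18 and 0.069. For replicate 3 at 12 h these numbers were 9 of the 10 genes and 37.2% of all genes, and it was the highest of all 9 libraries for 7 of the 10 genes and 15.6% of all genes.

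Other gene groups moved with this library as well. Of 15 tested immediate early genes, which respond to growth factors and stress within minutes, 15 were above the other 12 h libraries in replicate 3, by a median of 0.26. Amino acid transporters (10 of 10, median 0.18) and tRNA synthetases (13 of 13, median 0.12) were higher there too, and ER chaperones were higher in 5 of 14, with a median of -0.0086. In the lists described below, the numbers above were 11 of 13 enzymes (median 0.13) and 8 of 8 further ATF4 targets (0.20). They were 6 of 8 genes of the eIF2 step (0.12), 5 of 7 ATF4 partners (0.064), 9 of 11 hypoxia targets (0.062) and 7 of 13 p53 targets (0.070). Over the 10468 genes the median was -0.0014. The share of mitochondrial transcripts in this library, 1.17%, lay between those of the other 12 h libraries, 1.12% and 1.18%, and its total of 31046529 counts between their 30920755 and 36177889. Between time points that share did not overlap, at 1.41% to 1.498% at 0 h, 1.12% to 1.18% at 12 h and 1.21% to 1.36% at 24 h, so it was lower at both times when the members were higher. The markers of other cell types summed to between 1.29 and 1.52 CPM in the 3 libraries at 12 h. The part of these differences in the members' values was not tested.

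**Figure D3:**
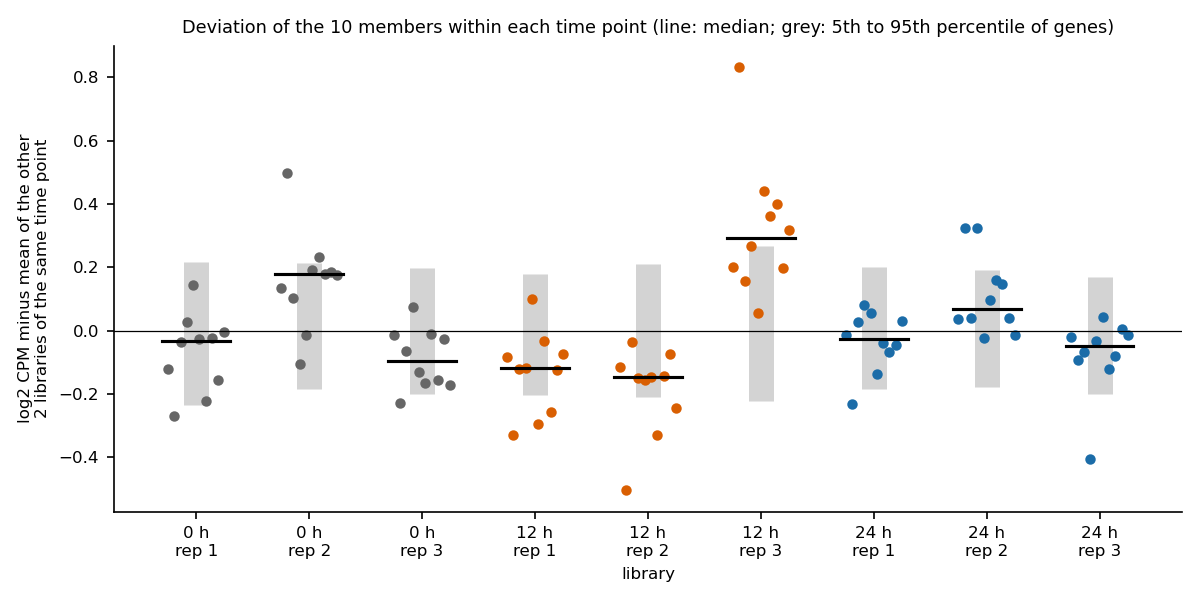
Log2 CPM of each of the 10 genes (points, in the order Atf4, Atf3, Atf5, Ddit3, Ddit4, Chac1, Nupr1, Trib3, Asns and Sesn2) in each library minus the mean of the other 2 libraries of the same time point. Lines are medians over the 10 genes and grey bars run from the 5th to the 95th percentile of 10468 genes. All 10 points lie above 0 in replicate 3 at 12 h, and their median, 0.29, is above the grey bar's end at 0.27.

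The rest of the pathway was described by lists. At the eIF2 step, 8 genes were listed, for the eIF2 kinases, an inhibitor of 1 of them (Impact), an eIF2 subunit and the phosphatase subunits. Of these, 3 rose at 12 h by the adjusted p (2 without replicate 3, when 1 fell) with a list median of -0.020. At 24 h 2 rose and 2 fell. Over all tested genes, 13.6% rose at 12 h (13.5% without replicate 3, when 10.5% fell), and 9.67% rose and 7.76% fell at 24 h. The kinase genes Eif2ak1 (HRI), Eif2ak2 (PKR), Eif2ak3 (PERK) and Eif2ak4 (GCN2) had 12 h estimates of -0.12, -0.046, 0.0055 and -0.063, and none passed. At 24 h Eif2ak1 and Eif2ak4 fell by 0.16 and 0.12, Eif2ak2 rose by 0.16, and Eif2ak3 did not pass. Ppp1r15b and Ppp1r15a, which encode the subunits that direct the phosphatase to eIF2, rose by 0.23 and 0.24 at 12 h, and the rise of Ppp1r15a was 0.13 and did not pass without replicate 3 (edgeR adjusted p = 0.0727). Among 7 tested partners of ATF4, factors that pair with it at DNA, 3 rose and 1 fell at 12 h, with and without replicate 3, and at 24 h. Cebpd fell by 0.58 at 12 h and by 0.45 at 24 h, and Maf rose by 0.46 at 24 h (edgeR adjusted p = 2.43e-07).

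Downstream, most of the listed enzymes rose when the core genes did. Of 13 enzymes of amino acid and folate metabolism, 12 rose at 12 h (12 without replicate 3) and 11 at 24 h, where 13.6% and 9.67% of all genes did and 11.9% and 7.76% fell, with medians of 0.32 and 0.38. Aldh1l2, a mitochondrial folate enzyme, rose by 0.69 and 0.76, and Cth, which makes cysteine, by 0.64 and 0.66. Cbs, which feeds the same route, was the exception at 12 h. It fell by 0.25, which did not pass without replicate 3, and by 0.41 at 24 h. Mthfd1l, a further folate enzyme, rose by 0.29 at 12 h and did not pass at 24 h (0.088, edgeR adjusted p = 0.187). From 12 to 24 h Mthfd1l fell by 0.20 (edgeR adjusted p = 0.0132). Both 12 h calls in this list, Aldh1l2 and Cth, were lost without replicate 3, at 0.55 and 0.54, with the adjusted p still past. Over all genes, 1.34% were called higher at 12 h, and 1.16% without that library. At 24 h 2 genes of the list were called with and without it, where 1.68% and 1.74% of all genes were called higher.

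Of 10 amino acid transporters, 5 rose at 12 h and 6 at 24 h, and for this and the next 2 lists the shares of all genes that rose were 13.6% and 9.67%. Slc7a11, the cystine importer, rose by 0.47 and 0.50 (0.27 at 12 h without replicate 3, edgeR adjusted p = 0.00859), and its partner Slc3a2 by 0.35 and 0.29. Of 13 genes for tRNA synthetases and the tRNA exporter Xpot, 12 rose at 12 h and 12 at 24 h, with medians of 0.26 and 0.22. Cars rose by 0.56 and 0.56 and Aars by 0.40 and 0.46. A mixed list held further ATF4 targets, among them secreted factors and a regulator of translation. Of its 8 tested genes, 5 rose at 12 h and 4 at 24 h, with Gadd45a at 0.55 and 0.41 and Cdsn at 0.38 and 0.53. The numbers that rose at 12 h in these 3 lists were the same without replicate 3.

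The ER chaperone arm, which is driven by ATF6 and XBP1 rather than ATF4, was described in the same way. Of 14 genes, 1 rose and 2 fell at 12 h, with a median of -0.019 (0.0080 and the same counts without replicate 3), where 13.6% of all genes rose and 11.9% fell. At 24 h 4 fell, where 7.76% of all genes did, with a median of -0.085. Xbp1 fell by 0.27 at 12 h and by 0.26 at 24 h, and Hyou1 by 0.16 at 24 h. The difference between this list and the core genes was not tested.

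**Figure D4:**
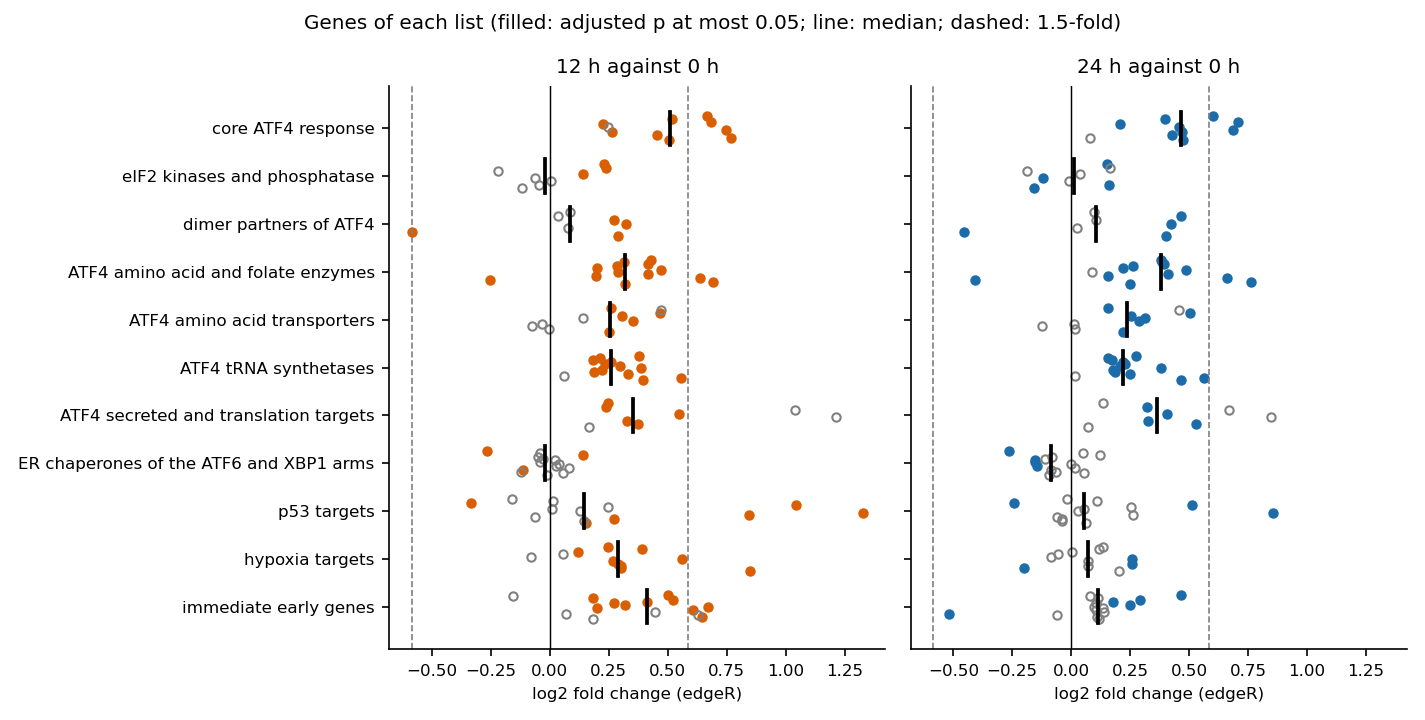
Log2 fold changes (edgeR) of the tested genes of each list at 12 h (left) and 24 h (right) against 0 h. Each point is a gene, filled where the adjusted p over all genes is at most 0.05, vertical lines are list medians and dashed lines mark 1.5-fold. The core genes have medians of 0.51 and 0.46, the enzymes 0.32 and 0.38, and the ER chaperones -0.019 and -0.085.

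Genes with the most similar profile were sought among 8425 genes with a mean of at least 10 CPM, by Pearson correlation of log2 CPM over the 9 libraries, as a description. Most like the mean profile of the 10 genes were Gpt2, a transaminase that makes alanine and is also in the enzyme list, with r = 0.996, Cpox, an enzyme of heme synthesis (r = 0.988), Stil, a centriole gene (r = 0.986), Dhrs9, a retinol dehydrogenase (r = 0.982), and Rbms1, an RNA-binding protein gene (r = 0.977). Without replicate 3 at 12 h their r ran from 0.976 to 0.994. Their 12 h changes ran from 0.17 in Rbms1 to 0.65 in Dhrs9. Most like Atf3 were Pvr, Arih2, Rhoq, Tanc2 and Csrnp1, with r from 0.956 to 0.977, and from 0.856 to 0.938 without replicate 3 at 12 h. Each of these 5 was higher in replicate 3 at 12 h than the mean of the other 12 h libraries, by 0.14 in Arih2 to 0.47 in Pvr. They were chosen for likeness to Atf3, which was highest in that library, so this follows in part from the choice. The genes share the libraries, so these values carry no p.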

How the data were processed

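RNA-seq of 9 MyC-CaP libraries, 3 per time point, was analysed. The time named in each title gave its group. The authors trimmed reads with Cutadapt, aligned them to GRCm38 with STAR and the GENCODE vM24 annotation, and assigned them to genes with featureCounts. The deposited values are raw counts per gene, not normalized, for 15552 protein-coding genes. Strand use and the handling of reads that match several genes are not given in the sources used here, so overlaps are given where they exist and close copies were not searched for.

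Counts were filtered with filterByExpr and scaled by TMM in edgeR 4.0.16 (R 4.3.3), and the 9 libraries were fitted together with glmQLFit. Pairs of time points were compared by the quasi-likelihood F-test, two-sided, with Benjamini-Hochberg adjustment over 11373 genes. A gene was called at an adjusted p of at most 0.05 and a fold change of at least 1.5. The standard error of a log2 change is its size divided by the square root of its F value. CPM use the TMM-scaled library size, except for the cell type markers and the count bound given with them, which use the plain library total. Log2 CPM use a prior count of 2. FPKM use the merged exon length in GENCODE vM21, which has the same build and the same spans for the 10 genes. With the study's thresholds, DESeq2 1.42.0 was an alternative, beside other scalings, no filter, a replicate block, glmTreat and fits without 1 library each. The procedure was tested on simulated counts.

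The members, lists, tests and the rule for naming genes were chosen with earlier results of these data known. All members were named, and from each list up to 2 genes past the adjusted p with the largest change, and 5 most similar genes. The eIF2 kinase genes, Impact, Xpot, Cbs, Mthfd1l and the other markers in the text were added after their values were seen. Stc2, Vldlr, Egln3 and Krt5 were not analysed here, and Ndrg1, Adm2, Batf2 and Egr3 had too few counts to be tested.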

Additional observations from a re-analysis of the deposited data

How the results depend on the processing

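In the 9 fits that left out 1 library each, 9 of the 10 genes stayed past the adjusted p at 12 h in all 9, and 9 of the 10 at 24 h. Calls among the 10 ranged from 1 to 5 at 12 h, from 2 to 4 at 24 h and from 0 to 1 at 24 h against 12 h, with the lowest 12 h count, 1, without replicate 3 at 12 h. Over all genes the ranges were 200 to 280, 182 to 279 and 16 to 36, against 261, 258 and 33 with all libraries, and the count of 16 came without replicate 1 at 24 h. With the adjusted p alone, 2896, 1982 and 572 genes and 9, 9 and 2 of the 10 passed. glmTreat, which tests for a change beyond 1.5-fold, called 4, 6 and 0 genes (the last with 46 at an unadjusted p under 0.05) and 0 of the 10 in each comparison, with 1, 1 and 0 at an unadjusted p under 0.05. Without the filter on low counts, Ddit3 passed the adjusted p at 12 h (edgeR adjusted p = 0.0298). At nearly unchanged log2 changes, the 12 h adjusted p of all 10 genes were smaller in that fit. For Atf3 the edgeR adjusted p was 5.92e-35, against 0.00492 with the filter, so the pass of Ddit3 goes with a shift of the whole fit. Also without the filter, 53 genes were called at 24 h against 12 h. DESeq2 called 0 of the 10 there, with 2 at an unadjusted p under 0.05.

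Estimates that changed sign, none of them past the test, were Atf3 at 24 h against 0 h (-0.0066 when replicate 1 at 0 h was left out and -0.029 when replicate 2 at 24 h was, in a range up to 0.28) and, at 24 h against 12 h, Atf4 (0.037), Chac1 (0.094), Trib3 (0.072) and Asns (0.033) without replicate 3 at 12 h, Ddit4 (0.014) without replicate 1 at 12 h, and Nupr1, at -0.074 when replicate 2 at 12 h was left out and -0.034 when replicate 2 at 24 h was. The other ends of their leave-one-out ranges were -0.062 for Atf4, -0.16 for Chac1, -0.15 for Trib3, -0.071 for Asns, -0.065 for Ddit4 and 0.15 for Nupr1. The causes were not tested. With the replicate number as a block, 268, 259 and 33 genes and 4, 3 and 1 of the 10 were called. Same-numbered libraries correlated in their deviations from the group means by -0.11 to 0.22, and 4 of the 9 libraries correlated best with their own number at both other times. The pairs of replicates 1 lay at 0.12 to 0.22 and not every pair was over 0.1, and the labels name no shared day or culture, so the number was not taken to pair the libraries. Depth was not limiting for the 10 genes, with at least 361 counts each.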

Other observations

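Atf3, Sesn2 and Ddit4 are also known targets of other pathways, whose lists are given here as values. Of 11 tested hypoxia targets, 9 rose at 12 h by the edgeR adjusted p (8 without replicate 3 at 12 h) and 2 at 24 h, with list medians of 0.29 and 0.073, and 6 fell from 12 to 24 h. Over all tested genes, 13.6% rose at 12 h and 9.67% at 24 h, and 3.06% fell from 12 to 24 h. Adm, a vasodilator peptide gene, rose by 0.85 at 12 h, and its log2 fold change from 12 to 24 h was -0.65 (edgeR adjusted p = 0.0109), and Ero1l, an oxidase of the ER, rose by 0.56 and 0.26. Of 15 immediate early genes, 10 rose at 12 h (9 without replicate 3) and 4 at 24 h, with medians of 0.41 and 0.11, and 6 fell from 12 to 24 h. Fos, named after its values were seen, fell by 0.52 at 24 h against 0 h (edgeR adjusted p = 0.000467). Ier3 and Egr1 rose by 0.67 and 0.65 at 12 h, and by 0.58 and 0.46 without replicate 3. Jun is in this list and in that of the partners of ATF4, and Vegfa is in the hypoxia list and in that of further ATF4 targets.

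Of 13 p53 targets, 5 rose at 12 h and 2 at 24 h, with 7 and 4 in the fit without replicate 3 at 12 h, where 13.5% and 11.5% of all genes rose. Sesn1, a sestrin gene named after its values were seen, fell by 0.33 at 12 h and by 0.24 at 24 h. Plk3, a stress-responsive kinase gene, rose by 1.04 at 12 h and 0.74 without that library, and Eda2r, a receptor gene, by 1.33 and 0.91. Among the epithelial and prostate markers, Krt8 rose by 0.30 and Hoxb13 by 0.28 at 12 h, and by 0.37 and 0.30 without replicate 3.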
